A study of Mus musculus with 8 samples.

Results

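The transcripts described here are 85 noncoding RNAs whose signal differed most between arrays in RAW264.7 cells, a mouse macrophage line, given lipopolysaccharide (LPS), melatonin or both. They were chosen from probes designed against RefSeq noncoding transcripts. The choice took probes that all 8 arrays read well above background and whose highest and lowest values were at least 1.5 log2 apart. A gene with several such probes was represented by the one of highest mean, and genes with a protein-coding symbol were left out. Of 2477 noncoding probes, 605 were well above background on every array and 95 passed the range. After 5 protein-coding symbols and 5 additional probes of a gene were left out, 85 genes remained of 527 noncoding candidates, which is 16.1%. The same range was reached by 19.7% of 11145 protein-coding genes that were above background on all arrays. Coding genes were counted by their probe of highest mean alone and noncoding genes by any probe that passed, so these shares are not strictly alike. Of the 85 transcripts, 69 are annotated as long noncoding RNAs, 11 as transcribed pseudogenes, 2 as small nucleolar RNAs, 1 as a Cajal body guide RNA, 1 as a pseudogene and 1 as another RNA.

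Because the range over the 8 arrays chose these transcripts, their differences between arrays are given as a description and without a test. Tests are given for neighbouring genes, parent genes, host genes and other listed noncoding transcripts, whose values the choice did not use. They are not independent of the choice for Marcksl1, whose signal cannot be told apart from that of a chosen pseudogene. Nor are they for Snhg9 and Snhg10, which contain chosen guide RNAs and correlated with them at r = 0.94. Noncoding hosts and listed transcripts with RefSeq noncoding probes above background on all arrays were left out for a range under 1.5. Their tests are therefore not independent of the choice either. The range ran from 1.51 to 5.72 log2 with a median of 1.97. Just inside the threshold lay Rab10os at 1.507, Hottip at 1.51 and Thap6 at 1.51, and just outside it lay BC025920 at 1.497, D430020J02Rik at 1.491 and E130102H24Rik at 1.466.

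RAW264.7 cultures were grown in the same medium and either were left untreated or received 1 mM melatonin for 1 h. LPS from Escherichia coli at 100 ng/ml then followed for 1, 3 or 5 h, and 1 culture of each arm received no LPS. Total RNA from each of the 8 conditions was measured on 1 array with 1 colour, so no condition has a replicate and no single value has an error. Group membership follows the sample titles, since the treatment entry of 3 melatonin samples names other LPS times and that of the 5 h melatonin sample none. Values are processed signals on the log2 scale, less the 75th percentile of their array, so 0 marks that percentile. The melatonin arm lay on a slide row of its own and each LPS time on a slide column of its own, so arm and row, and LPS time, column and hours in culture, cannot be told apart.

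All 8 listed macrophage markers were well above background on every array, with Lyz2 between 8.45 and 9.14. None of the 3 fibroblast and 3 epithelial markers was above background on any array, and no B cell marker was above it on all 8. Of 4 T cell markers, Cd3e lay between 0.26 and 0.71, Cd4 between 1.84 and 2.38 and Cd3d between -3.64 and -1.71 on arrays that all read them above background, while Cd8a was not above it on any. Between 46.96% and 52.99% of probes were above background per array. In bulk RNA, fewer cells that make a transcript and less of it per cell cannot be told apart.

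Long noncoding RNAs are transcribed and often spliced like messenger RNAs but are not translated into a known protein. Some act in the nucleus as scaffolds, some regulate the gene beside them, and some are the precursors from which microRNAs or small nucleolar RNAs are cut. In macrophages, Toll-like receptor 4 detects LPS and drives NF-kB, AP-1 and interferon-regulated transcription, which switches noncoding transcripts along with cytokine genes. Melatonin is an indole hormone with receptors and radical-scavenging properties.

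Each value below rests on a single oligonucleotide of 60 bases. The probe sequences behind some of the widest profiles and some of the largest melatonin differences are therefore shown. They are printed from 5′ to 3′ as on the array, with mm9 coordinates from the scanner files. The A430093F15Rik probe lies at chr19:10860290-10860349 on the plus strand, that of 6530402F18Rik at chr2:29100666-29100725 on the minus strand and that of 2210408F21Rik at chr6:31285995-31286054 on the plus strand. The Neat1 probe lies at chr19:5844123-5844182, the Dleu2 probe at chr14:62221943-62222002 and the Peg13 probe at chr15:72636072-72636131, all on the minus strand.
A430093F15Rik: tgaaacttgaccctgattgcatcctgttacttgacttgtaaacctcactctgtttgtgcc
6530402F18Rik: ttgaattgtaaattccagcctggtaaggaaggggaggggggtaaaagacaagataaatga
2210408F21Rik: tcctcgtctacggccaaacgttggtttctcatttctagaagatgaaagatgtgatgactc
Neat1: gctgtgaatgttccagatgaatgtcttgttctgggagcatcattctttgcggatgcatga
Dleu2: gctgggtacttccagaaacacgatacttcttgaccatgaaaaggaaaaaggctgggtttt
Peg13: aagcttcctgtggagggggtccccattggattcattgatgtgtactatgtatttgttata

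For 3 long noncoding RNAs, RefSeq (GRCm38.p6) places mature microRNAs inside the gene on the same strand. In Mir22hg lie miR-22-5p (chr11:75463734-75463755) and miR-22-3p (chr11:75463772-75463793), on the plus strand. In Dleu2 lie miR-15a-5p (chr14:61632075-61632096) and miR-16-5p (chr14:61631936-61631957), on the minus strand, which share the seed AGCAGCA. Snhg20 holds miR-6516-5p (chr11:117077370-117077391, plus strand). Capitals mark the seed, bases 2 to 8. Mature microRNAs themselves were not measured on these arrays.
miR-22-5p: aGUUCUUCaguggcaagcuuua
miR-22-3p: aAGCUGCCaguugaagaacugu
miR-15a-5p: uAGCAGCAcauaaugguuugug
miR-16-5p: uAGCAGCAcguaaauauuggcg
miR-6516-5p: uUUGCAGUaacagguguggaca

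After 5 h of LPS, 35 of the 85 transcripts were higher than without LPS in both arms, 42 were lower in both and 8 differed in direction. At least 1 log2 separated both arms from their own array without LPS for 22 of those above and 20 of those below. The changes at the 3 times share the same arrays without LPS. In the limma fit over 20236 genes, the noncoding transcripts called at 1 h numbered 10, beside 1.93% of all genes, with 5 higher and 5 lower, beside 1.66% and 0.277%. At 3 h 61 were called, beside 33.6%, with 28 higher and 33 lower, beside 18.6% and 15.0%. At 5 h 66 were called, beside 44.1%, with 29 higher and 37 lower, beside 24.9% and 19.3%. Nothing is read from these counts, since the range that chose the transcripts includes these differences. Leaving out the array without either agent or the 3 h array without melatonin lowers the 3 h count from 61 to 34 or 31. At 1 h, 1 of the 10 calls remains without the array lacking both agents or without the 1 h melatonin array. Without the 1 h array lacking melatonin 0 of the 10 remain and 1 other transcript is called, and without either 3 h array 5 calls are made, 4 of them among the 10.

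**Figure D1:**
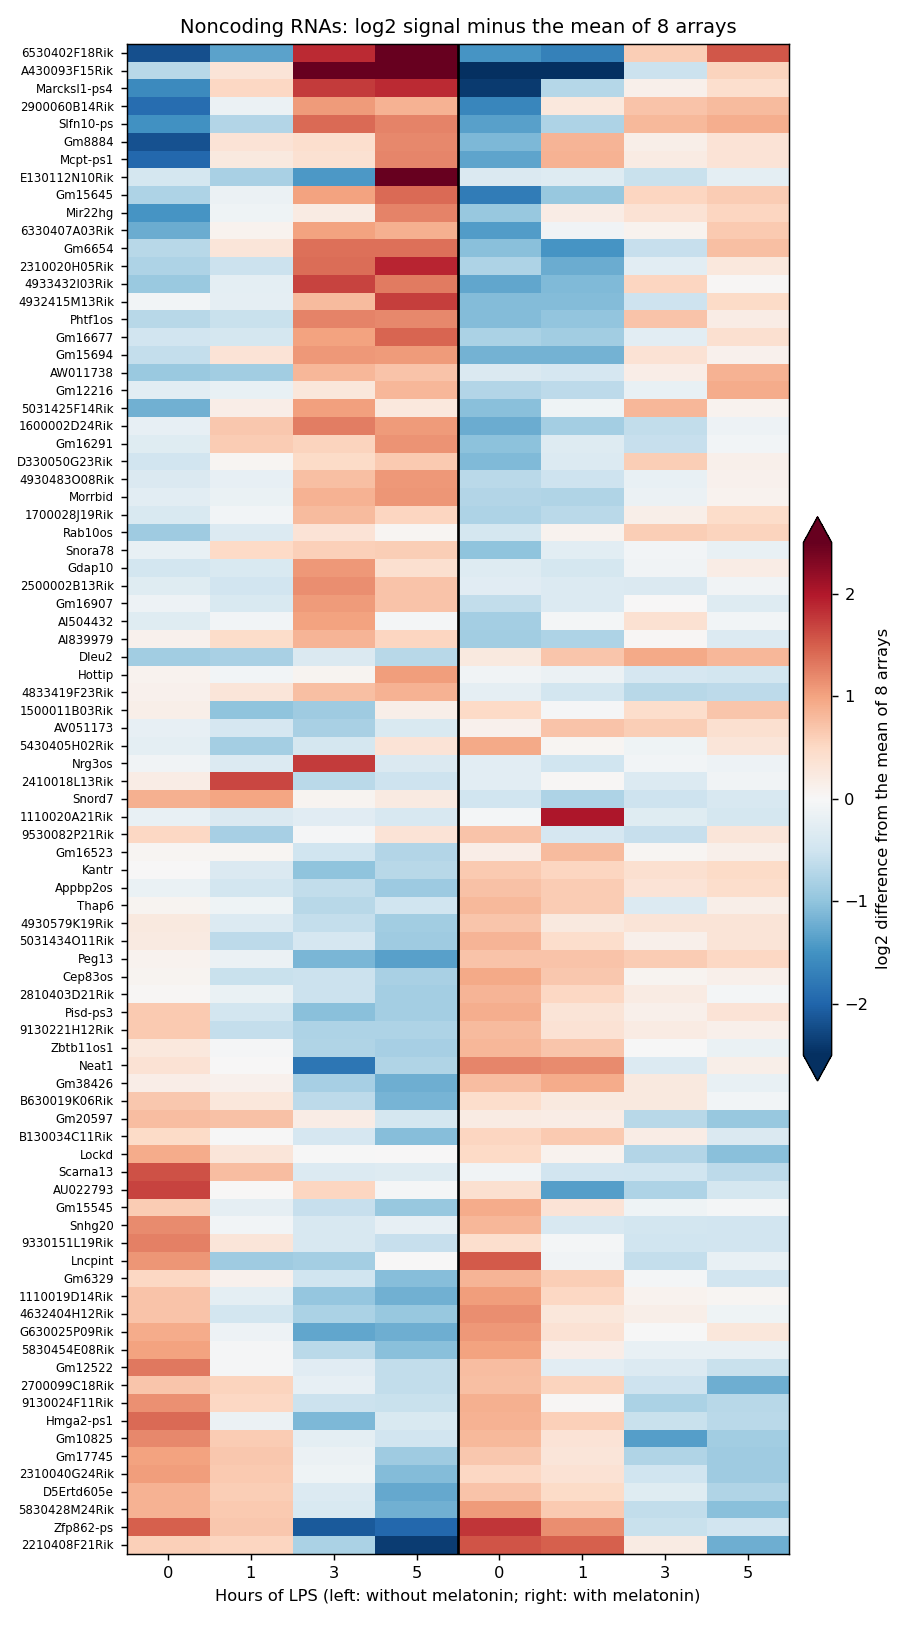
Heat map of 85 noncoding RNAs (rows, ordered by their mean change at 5 h of LPS) on 8 arrays (columns, hours of LPS without melatonin left and with it right), 1 array per column. Colour is the log2 signal minus the mean of the 8 arrays for that RNA; 35 RNAs are above their array without LPS in both arms at 5 h and 42 are below it.

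Among the transcripts that were higher with LPS, 6530402F18Rik, a long noncoding RNA that overlaps Ntng2 on the same strand, had the largest change. In the arm without melatonin it read -2.57, -1.71, 1.5 and 2.29 after 0, 1, 3 and 5 h of LPS, the order used for every transcript here. In the melatonin arm it read -1.85, -2.05, 0.25 and 1.18. The 3 h and 5 h arrays were the high ones in both arms and did not overlap with the 0 h and 1 h arrays, and the 5 h change was 4.86 without melatonin and 3.02 with it. A probe to another of its transcripts, above background on 6 arrays, tracked it over the 8 arrays (r = 0.98, as a description).

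A430093F15Rik, a long noncoding RNA beside the Cd5 gene, had the widest range of all, 5.72 log2. It read -1.57, -0.55, 1.77 and 2.15 without melatonin and -3.52, -3.57, -1.42 and -0.32 with it. Each melatonin array was the lower of its pair, and the 5 h changes were close, 3.72 without and 3.20 with melatonin.

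2900060B14Rik, which overlaps Clasp1, read -1.20, 0.57, 1.78 and 1.57 without melatonin and -0.93, 0.97, 1.42 and 1.5 with it. Its arms overlapped at every LPS time, and it was already 1.77 and 1.90 higher at 1 h. Slfn10-ps, a pseudogene of the Schlafen family, whose members are induced by interferon, read 0.52, 1.31, 3.46 and 3.28 without melatonin and 0.68, 1.27, 2.86 and 2.95 with it. The step lay between 1 and 3 h in both arms, and a separate probe gave the same profile over the 8 arrays (r = 0.99). Mir22hg, the host of miR-22, read -0.68, 0.70, 1.00 and 2.05 without melatonin and -0.15, 0.99, 1.17 and 1.33 with it. It was above its array without LPS at every time, and melatonin arrays were higher up to 3 h and lower at 5 h.

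6330407A03Rik, which overlaps the gene of the Src-family kinase Lyn, read -0.95, 0.38, 1.28 and 1.18 without melatonin and -1.12, 0.20, 0.37 and 0.93 with it. Gm15645, annotated as a pseudogene, read 3.91, 4.52, 5.68 and 6.09 without melatonin and 2.93, 3.73, 5.22 and 5.31 with it. 2310020H05Rik read -2.54, -2.30, -0.37 and 0.14 without melatonin and -2.54, -3.01, -2.03 and -1.51 with it. For these 3 the later LPS arrays were higher in both arms, and the melatonin array was the lower of every pair except the 0 h pair of 2310020H05Rik, which differed by 0.01. The 5 h change of 2310020H05Rik was 2.68 without melatonin and 1.03 with it.

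Morrbid, a long noncoding RNA known to restrain the neighbouring death gene Bcl2l11 in short-lived myeloid cells, read -0.56, -0.45, 0.58 and 0.82 without melatonin and -1.02, -1.04, -0.43 and -0.21 with it. Every melatonin array was the lower of its pair. A further Morrbid probe ran alongside over the 8 arrays (r = 0.92), although its arrays without LPS did not show the melatonin difference (0.08 at 0 h, -1.29 at 5 h).

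**Figure D2:**
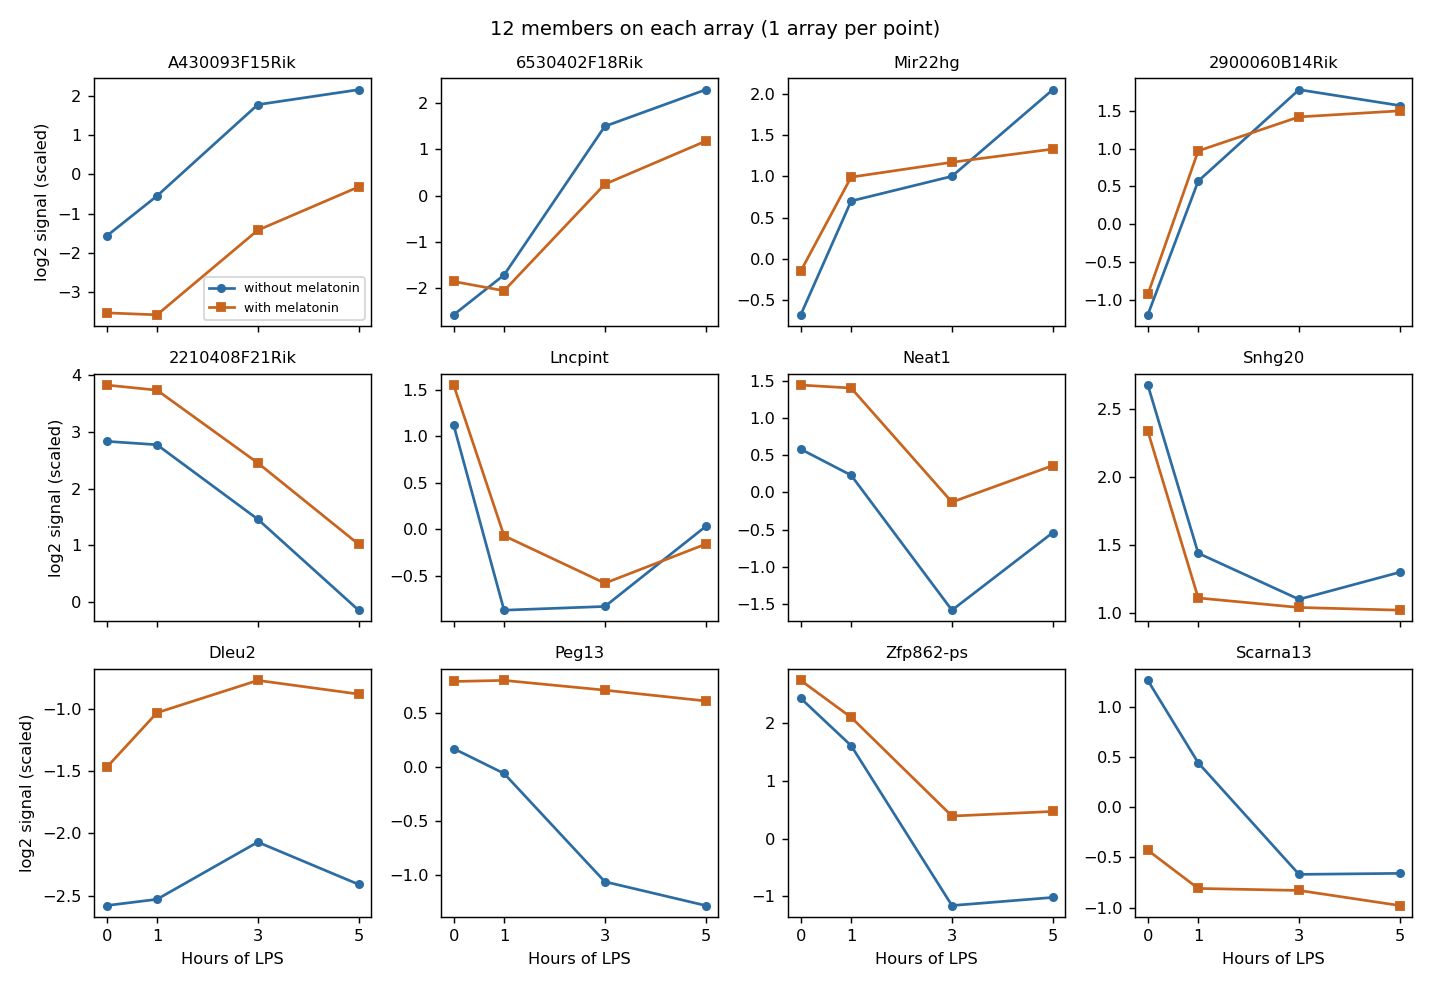
Time courses of 12 noncoding RNAs: hours of LPS on the x axis and log2 signal relative to the 75th percentile of the array on the y axis, with blue circles without melatonin and orange squares with it, 1 array per point and a scale of its own in each panel. The arms stay apart for A430093F15Rik, Dleu2 and Peg13 and cross for Mir22hg and 6530402F18Rik.

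Among the transcripts that were lower with LPS, the largest changes at 5 h belonged to a long noncoding RNA and a pseudogene. 2210408F21Rik read 2.83, 2.77, 1.46 and -0.14 without melatonin and 3.82, 3.73, 2.45 and 1.02 with it. Its level was nearly the same at 0 and 1 h, lower at 3 h and lowest at 5 h in both arms, and the melatonin array was the higher of each pair. Zfp862-ps read 2.43, 1.61, -1.16 and -1.02 without melatonin and 2.74, 2.10, 0.39 and 0.47 with it. It reached its low level by 3 h, and the 5 h change was -3.44 without melatonin and -2.28 with it.

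The next largest decreases had arms that lay closer together at 5 h. 5830428M24Rik read 0.02, -0.19, -1.22 and -2.05 without melatonin and 0.22, -0.18, -1.46 and -1.88 with it. D5Ertd605e read 0.24, -0.01, -0.97 and -1.90 without melatonin and 0.08, -0.15, -0.94 and -1.38 with it. Both declined from 1 h onward. 2310040G24Rik read 0.42, 0.03, -0.74 and -1.72 without melatonin and -0.12, -0.27, -1.14 and -1.52 with it. Gm17745, beside the ETS factor gene Elk3, read 1.14, 0.80, -0.02 and -0.76 without melatonin and 0.80, 0.43, -0.62 and -0.76 with it. In both, the 3 h and 5 h arrays were the low ones of each arm.

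Neat1, the scaffold RNA of nuclear paraspeckles, read 0.58, 0.23, -1.58 and -0.54 without melatonin and 1.44, 1.40, -0.13 and 0.36 with it. It was lowest at 3 h in both arms and had partly returned by 5 h, and every melatonin array was the higher of its pair by 0.86 to 1.45. A further Neat1 probe read -0.75, -0.92, -2.45 and -1.65 without melatonin and 0.24, 0.16, -1.10 and -0.75 with it, the same order of arrays within each arm.

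At 1 h of LPS, 13 of the 85 transcripts were at least 1 log2 from their arrays without LPS in the mean of both arms, 7 of them higher. Marcksl1-ps4, a pseudogene of the actin-regulating protein gene Marcksl1, read 2.23, 4.33, 5.56 and 5.69 without melatonin and 1.43, 3.11, 3.95 and 4.23 with it. Gm8884 read -3.67, -1.15, -1.07 and -0.30 without melatonin and -2.62, -0.65, -1.35 and -1.15 with it. Mcpt-ps1, a mast cell protease pseudogene that overlaps Cma2, read -2.35, -0.15, -0.01 and 0.83 without melatonin and -1.71, 0.48, -0.20 and -0.06 with it. For Gm8884 and Mcpt-ps1 the profile without melatonin kept climbing to 5 h, whereas the melatonin arm was highest at 1 h.

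Lncpint, a long noncoding RNA that p53 induces and that binds Polycomb complexes, had the largest decrease at 1 h. It read 1.12, -0.87, -0.83 and 0.03 without melatonin and 1.55, -0.07, -0.58 and -0.16 with it. The array without LPS was the highest of each arm, and a probe to another Lncpint transcript tracked it (r = 0.95). Snhg20, a small nucleolar RNA host gene, read 2.68, 1.44, 1.10 and 1.30 without melatonin and 2.34, 1.11, 1.04 and 1.02 with it. Its decrease was nearly complete at 1 h and as large in both arms (-1.38 and -1.32 at 5 h).

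AU022793 read -0.30, -1.97, -1.45 and -2.02 without melatonin and -1.58, -3.35, -2.75 and -2.43 with it. Gm12522 read 0.07, -1.27, -1.54 and -1.87 without melatonin and -0.47, -1.52, -1.58 and -1.80 with it. 4632404H12Rik read 0.00, -1.17, -1.51 and -1.66 without melatonin and 0.45, -0.44, -0.58 and -0.83 with it. All of these were lower than without LPS at each time, and the melatonin array was the lower of each pair for AU022793 and the higher for 4632404H12Rik. 9530082P21Rik, which lies opposite Flywch1, read -0.32, -1.66, -0.86 and -0.50 without melatonin and -0.13, -1.25, -1.42 and -0.54 with it. Its decrease was transient, with changes of -0.18 and -0.41 left at 5 h.

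Melatonin arrays were the higher of the pair at all 4 times for 26 of the 85 transcripts, beside 22.4% of all genes tested, and the lower at all 4 for 27, beside 36.7%. In the limma fit 52 were called for melatonin, beside 40.5% of all genes, with 26 higher and 26 lower, beside 15.3% and 25.3%, again a description. Without either 3 h array the 52 calls become 32. Of the 42 transcripts lower at 5 h in both arms, 22 were higher with melatonin at all 4 times and 7 lower, beside 39.6% and 20% of the 7046 genes lower at 5 h in both arms. Of the 35 transcripts higher at 5 h, 2 were higher with melatonin and 17 lower, beside 11.7% and 53.0% of 9377 such genes. The same tilt was therefore present over all genes, and the arrays at 0 and 5 h enter both directions.

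The largest melatonin difference was that of A430093F15Rik, with a mean of -2.66 over the 4 times and single values of -1.95, -3.01, -3.18 and -2.47. The largest positive difference was that of Dleu2, the host of miR-15a and miR-16, which read -2.58, -2.53, -2.07 and -2.41 without melatonin and -1.47, -1.03, -0.77 and -0.88 with it. All 4 melatonin arrays of Dleu2 lay above all 4 others, and LPS changed it by 0.17 and 0.59 at 5 h. The probes of Dleu2 did not all show this. A probe to another Dleu2 transcript that was above background on all arrays read the melatonin array lower at every time, with a mean of -0.30 (r = -0.70 with the probe used here).

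Peg13, an imprinted RNA expressed from the paternal copy inside Trappc9, read 0.17, -0.06, -1.06 and -1.28 without melatonin and 0.79, 0.80, 0.71 and 0.61 with it. Its decrease with LPS was -1.45 at 5 h without melatonin and -0.18 with it. The mean melatonin difference of Neat1 was 1.10 and that of Marcksl1-ps4 -1.27.

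1600002D24Rik read -2.61, -1.72, -1.11 and -1.34 without melatonin and -3.63, -3.24, -3.02 and -2.52 with it. Gm6654, a transcribed pseudogene that overlaps Med21, read -2.92, -1.93, -0.85 and -0.84 without melatonin and -3.27, -3.70, -2.81 and -1.48 with it. 4932415M13Rik read -1.01, -1.17, -0.15 and 0.78 without melatonin and -2.02, -2.03, -1.46 and -0.47 with it. All 3 were lower with melatonin at each time and higher with LPS at 5 h in both arms.

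**Figure D3:**
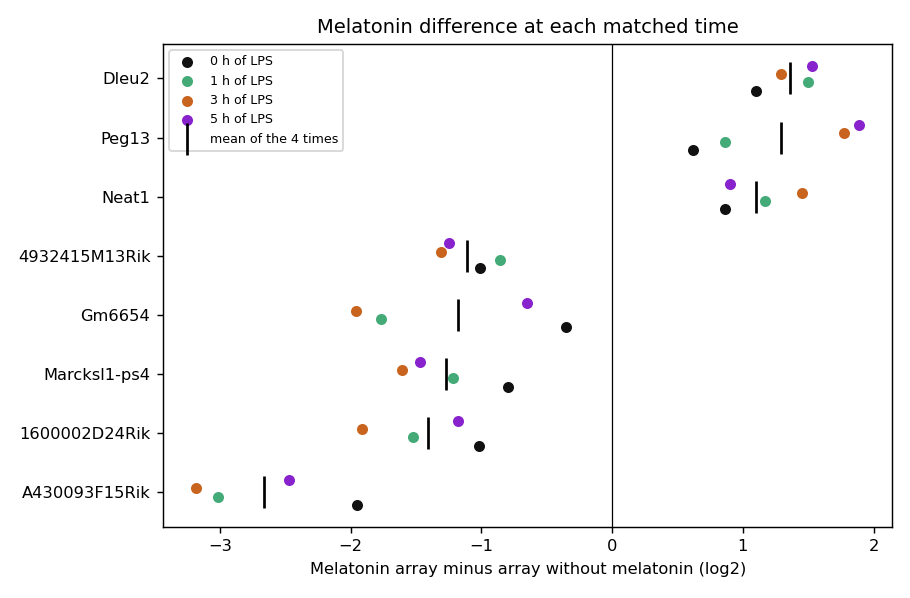
Melatonin difference of the 8 noncoding RNAs with the largest mean difference in size: the x axis gives the melatonin array minus the array without melatonin (log2), with a dot for each LPS time and a bar for the mean of the 4 times. Every dot of Dleu2, Peg13 and Neat1 lies above 0 and every dot of the other RNAs below it.

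LPS changes tended to be smaller in the melatonin arm. Among 29 transcripts at least 0.5 log2 higher at 5 h in both arms, the increase was smaller with melatonin in 23 (79.3%, beside 69.2%). Among 35 at least 0.5 log2 lower, the decrease was smaller with melatonin in 29 (82.9%, beside 76.5%). The 4 arrays without melatonin spanned the wider range for 67 of 85 (78.8%, beside 64.8%). The shares set beside these are of genes of the same kind above background on all 8 arrays, 2161, 2197 and 16577 in turn. A smaller change in the melatonin arm was therefore the more frequent case among those genes too. No transcript of the 85 was called for the melatonin by LPS term of the limma model, which called 0.00494% of all genes, 1 of 20236. At an unadjusted p under 0.05 the term picked 9 of the 85 and 762 of the 20236, and without the 1 h melatonin array 1 of the 85 was called.

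**Figure D4:**
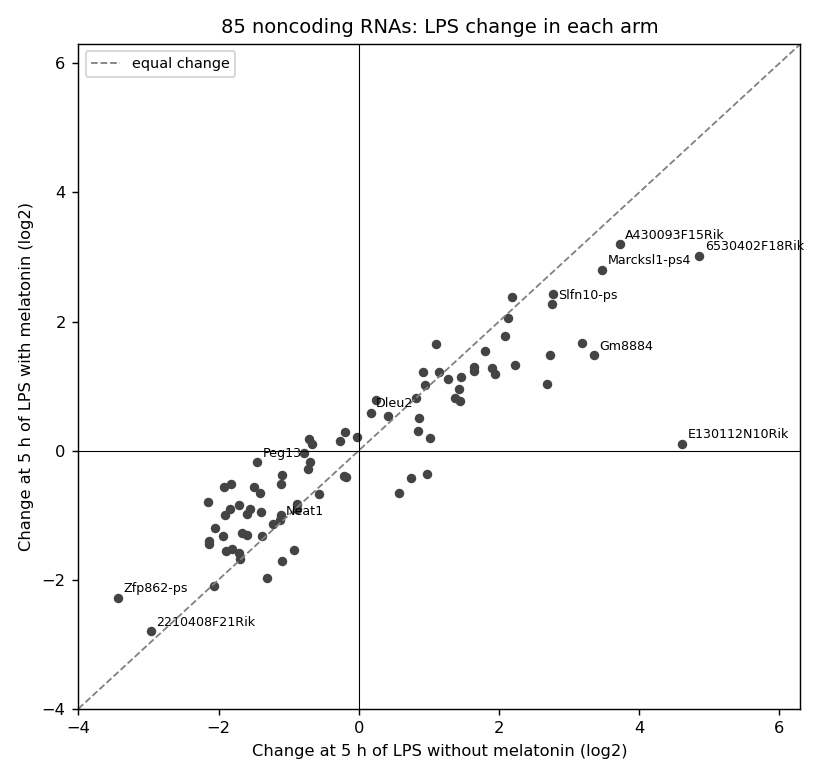
Change at 5 h of LPS without melatonin (x axis, log2) against the change with melatonin (y axis, log2) for 85 noncoding RNAs, each arm against its own array without LPS and 1 array per condition; the dashed line marks equal change. E130112N10Rik changes by 4.61 in the arm without melatonin and by 0.11 in the other.

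Some ranges rested on a single array. Without the array that widened it most, the range of 37 of the 85 transcripts was under 1.5, and 48 kept it. E130112N10Rik, which overlaps Cd27 on the opposite strand, read -3.08, -3.46, -4.08 and 1.52 without melatonin and -3.01, -2.96, -3.20 and -2.90 with it. Its 5 h array without melatonin alone stood apart from the other 7. 1110020A21Rik stood apart on the 1 h melatonin array only, at -0.39 beside -2.85 to -2.45 on the others. Nrg3os read -1.60 at 3 h without melatonin and between -3.85 and -3.42 elsewhere. Hottip, a transcript of the Hoxa cluster, read -1.79 at 5 h without melatonin and between -3.30 and -2.76 elsewhere. Whether these single values repeat was not tested, since no condition has a further array.

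Small guide RNAs were compared with the genes that host them. Scarna13, a guide RNA of Cajal bodies inside Snhg10, read 1.26, 0.44, -0.67 and -0.66 without melatonin and -0.43, -0.81, -0.83 and -0.98 with it. Without melatonin it was highest before LPS, and the melatonin arrays were low throughout. Its host Snhg10 changed by -1.11 and -0.58 at 5 h in the arms (limma mean -0.85, SE 0.15, adjusted p = 0.00781), a call lost without the 5 h array of the arm lacking melatonin, and the pair correlated over the 8 arrays at r = 0.94. Snora78, an H/ACA guide RNA inside Snhg9 and Rps2, read -0.53, 0.15, 0.26 and 0.28 without melatonin and -1.35, -0.60, -0.41 and -0.53 with it. All its melatonin arrays were the lower of their pairs. Snhg9 was also lower with melatonin at all 4 times (limma -0.36, SE 0.05, adjusted p = 0.00486) and correlated with it at r = 0.94. The protein-coding host Rps2 had a melatonin difference of -0.02 (adjusted p = 0.672 by limma). Snord7, a C/D box guide RNA, read -1.01, -0.91, -1.83 and -1.67 without melatonin and -2.40, -2.68, -2.42 and -2.30 with it. Its melatonin arrays were the low ones, and its host AA465934 had r = 0.11 with it.

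Pseudogene probes can bind the transcript of the parent gene. The probe of Marcksl1-ps4 and a probe of Marcksl1 overlap by 49 bases with 4 mismatches. Other Marcksl1 probes share no run longer than 8 bases with it. The Marcksl1 values below come from its probe of highest mean, which may not be the overlapping one. The overlapping probes are shown with their longest shared run of 18 bases in capitals, from mm9 chr13:4248964-4249023 and chr4:129193170-129193229, both on the plus strand.
Marcksl1-ps4: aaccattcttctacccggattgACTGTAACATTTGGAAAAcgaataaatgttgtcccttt
Marcksl1: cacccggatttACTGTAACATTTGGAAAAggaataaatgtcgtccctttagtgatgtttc

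Marcksl1 read 2.73, 4.91, 6.04 and 6.18 without melatonin and 1.95, 3.67, 4.44 and 4.70 with it, and correlated with the pseudogene probe at r = 1.00. The parent gene rose by 1.95 at 1 h, 2.89 at 3 h and 3.1 at 5 h (SE 0.19 each; limma adjusted p = 0.0107, 0.000684 and 0.000375) and was lower with melatonin (-1.27, SE 0.14, adjusted p = 0.00339), each in both arms or at all 4 times. The 1 h call is lost without either 1 h array. The signal assigned to Marcksl1-ps4 therefore cannot be told apart from that of Marcksl1, and the tests of Marcksl1 are not independent of the choice. Hmga2-ps1 and Pisd-ps3 share no such run with the probes of their parents. Hmga2, a chromatin architectural protein gene, was lower with melatonin at all 4 times (limma -1.49, SE 0.15, adjusted p = 0.00315), while Hmga2-ps1 differed by 0.13 on average and the pair had r = -0.26. The 2700099C18Rik probe shares a run of 25 bases with a probe of the kinetochore gene Ndc80, so its identity is uncertain in the same way.

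Further probes of the same gene existed for 25 of the transcripts, 33 probes in all. Of these, 17 probes of 15 transcripts were above background on all arrays. Their correlation with the probe used here had a median of 0.90 over the 8 arrays, was at least 0.8 for 12 of the 17, and was lowest for Dleu2 at -0.70. Probes of a gene can read different transcripts, and for Thap6 (r = -0.21) and 1500011B03Rik (r = -0.48) the additional probe did not follow either.

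The nearest protein-coding gene was found for 84 of the 85 transcripts in the RefSeq gene table. It overlapped the noncoding gene in 35 cases, of which 16 lay on the opposite strand, 3 on the same strand and 16 on a strand that was not resolved, and it was the next gene in 49. Of these neighbours 65 were tested. At 1 h 1 was called higher and 0 lower by limma, beside 1.66% and 0.277% of all genes, and 8 and 3 had an unadjusted p under 0.05. At 3 h 20 rose and 12 fell, beside 18.6% and 15.0%. At 5 h 25 rose and 14 fell, beside 24.9% and 19.3%. With melatonin 11 were higher and 15 lower, beside 15.3% and 25.3%. Without the array lacking both agents, 13 neighbours were called at 3 h, 12 of them among the 32, and 20 at 5 h, without the 3 h array lacking melatonin 11 at 3 h, and without the 5 h array lacking melatonin 21 at 5 h. The 26 melatonin calls became 15 without the 1 h array lacking melatonin, and 16 without the 3 h array lacking melatonin or without the 1 h or 3 h melatonin array. A called neighbour had the direction of its noncoding partner in 19 of 32 pairs at 3 h, 25 of 39 at 5 h and 15 of 26 with melatonin. The share that unrelated pairs would give was not computed, so nothing is read from these counts. Over the 8 arrays the median correlation of the 65 pairs was 0.26, with r above 0.8 in 11 and below -0.8 in 4, as a description over arrays that share their treatments.

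Among neighbours beside transcripts that were higher with LPS, Cd5, a receptor of lymphocytes beside A430093F15Rik, rose by 1.70 at 5 h (SE 0.23, limma adjusted p = 0.00295), by 1.90 and 1.5 in the arms. It was lower with melatonin (-2.44, SE 0.16, adjusted p = 0.00226), at all 4 times, and correlated with A430093F15Rik at r = 0.93. Lyn, the kinase gene that overlaps 6330407A03Rik, rose by 0.86 at 3 h and 1.33 at 5 h (SE 0.11 each, limma adjusted p = 0.00375 and 0.000686), in both arms. Rsbn1, opposite to Phtf1os, rose by 2.46 at 3 h and 2.21 at 5 h (SE 0.20 each, limma adjusted p = 0.00112 and 0.000886), with r = 0.99 to Phtf1os. These calls held in every alternative run.

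Bcl2l11, which encodes the death protein Bim beside Morrbid, rose by 1.24 at 1 h, 2.02 at 3 h and 1.88 at 5 h (SE 0.09 each, limma adjusted p = 0.0031, 0.000215 and 0.000185), in both arms, and was 0.72 higher with melatonin (SE 0.06, adjusted p = 0.0025). Its 1 h call, the single one among neighbours, is lost without the 1 h array lacking melatonin (adjusted p = 0.0511). Morrbid itself read lower with melatonin at each time, opposite to Bcl2l11, although its further probe did not at 0 h (0.08). With LPS both Morrbid and Bcl2l11 were higher at 5 h in both arms, and the pair had r = 0.33 over the 8 arrays. A relation between them was not tested. Slfn8, beside Slfn10-ps, rose by 1.60 at 3 h and 1.56 at 5 h (SE 0.44 each, limma adjusted p = 0.0387 and 0.0332), calls lost without any of several single arrays (adjusted p up to 0.214).

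Among neighbours beside transcripts that were lower with LPS, Atp6v0e2, a proton pump subunit gene beside Zfp862-ps, fell by 1.58 at 5 h (SE 0.18, limma adjusted p = 0.00193) and was 1.16 higher with melatonin (SE 0.13, adjusted p = 0.0037). Frmd8, beside Neat1, fell by 1.11 at 3 h (SE 0.15, limma adjusted p = 0.00482) and had r = 0.98 with Neat1. Cdkn1b, the cell cycle inhibitor gene beside Lockd, fell by 1.68 at 3 h and by 1.32 at 5 h (limma adjusted p = 0.00108 and 0.00129). Elk3, beside Gm17745, fell by 1.42 at 5 h (SE 0.17, limma adjusted p = 0.00212), with r = 0.92. These 5 h and 3 h calls were in both arms and held in every alternative run. Not every pair matched, and at 5 h 25 of 39 called neighbours had the direction of their noncoding partner. Sgo1, beside 4932415M13Rik, fell in both arms, by a mean of 1.12 at 5 h (SE 0.18, limma adjusted p = 0.00494), while 4932415M13Rik was higher. Lrp12, beside AU022793, rose by 1.0 at 3 h (SE 0.17, limma adjusted p = 0.00891), while AU022793 was lower. That call of Lrp12 is lost without the 3 h array lacking melatonin. Mettl4, which overlaps 2700099C18Rik, rose by 0.72 at 5 h (SE 0.10, limma adjusted p = 0.00324) while 2700099C18Rik was lower, and Mkln1, beside 2210408F21Rik, changed by 0.15 (SE 0.11, adjusted p = 0.314).

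**Figure D5:**
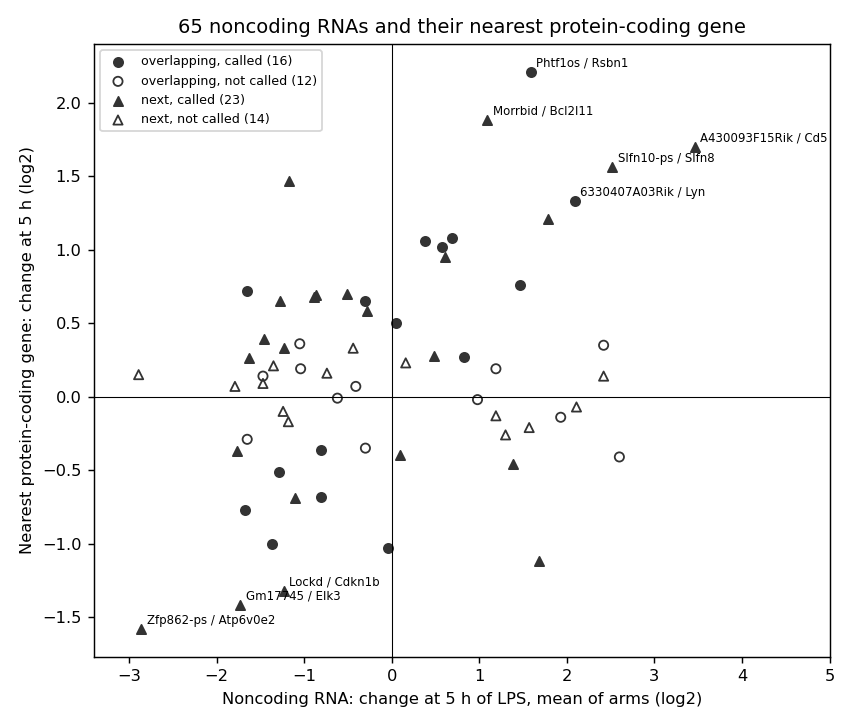
Change at 5 h of LPS of 65 noncoding RNAs (x axis, mean of both arms, log2) against the change of the nearest protein-coding gene (y axis, limma estimate, log2); circles overlap the noncoding gene, triangles are the next gene, and filled symbols are neighbours called by limma. Of 39 called neighbours, 25 lie on the same side of 0 as their noncoding partner.

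Other noncoding transcripts of the same kinds, listed for this purpose, were tested where they were not among the 85. Those with RefSeq noncoding probes above background on all arrays were left out of the 85 for a range under 1.5. That range includes the differences tested, so nothing is read from their counts beside the shares of all genes. Of 21 snoRNA host genes 15 were tested, and 14 of these were not among the 85. The 14 include Snhg9 and Snhg10, which host guide RNAs that are among the 85. At 3 h 7 of the 14 rose and 1 fell, beside 18.6% and 15.0% of all genes. At 5 h 2 rose and 2 fell, beside 24.9% and 19.3%, and with melatonin 2 were higher and 5 lower, beside 15.3% and 25.3%. Their median change at 5 h was 0.15, beside 0.08 over all genes. Snhg15 rose by 0.74 at 3 h and 0.77 at 5 h (limma adjusted p = 0.00129 and 0.000686), in both arms and in every alternative run. The others that rose at 3 h were Snhg3, Snhg4, Snhg9, Snhg12, Snhg16 and Gas5, by 0.24 to 0.77, and each of these calls is lost without the array lacking both agents. With quantile normalization or the deposited table, those of Snhg3, Snhg9, Snhg12, Snhg16 and Gas5 are lost too. Snhg10 was the 1 that fell at 3 h, and Snhg5 and Snhg10 were the pair that fell at 5 h. Snhg5 and Snhg8 were higher with melatonin (0.49 and 0.39, limma adjusted p = 0.0225 and 0.00351), and Snhg4, Snhg9, Snhg10, Snhg15 and Snhg16 were lower, by -0.51 to -0.36. The melatonin calls of Snhg4, Snhg5 and Snhg10 are lost without a single array, and that of Snhg15 with quantile normalization or the deposited table (adjusted p up to 0.0673).

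Of 19 microRNA host transcripts 10 were tested, 7 of them outside the 85. At 3 h 1 of the 7 rose and 2 fell, beside 18.6% and 15.0% of all genes, and at 5 h 2 rose and 3 fell, beside 24.9% and 19.3%. With melatonin 0 were higher and 2 lower by limma, beside 15.3% and 25.3%, the same counts as at an unadjusted p under 0.05. Mir155hg, the precursor of miR-155, which LPS induces through NF-kB, was not well above background on either array without LPS and so is not among the 85. It was at least 9.92-fold higher at 1 h, 26.2-fold at 3 h and 22.7-fold at 5 h (limma adjusted p = 0.0033, 0.000377 and 0.000296), where the bound sets the dim arrays at the lowest signal still read above background. Its measured means were -1.22, 0.18 and -0.03, beside -5.46 without LPS, and its 1 h call is lost with values set to a higher floor common to all arrays, -4.02 (adjusted p up to 0.108). It was lower with melatonin (-1.08, limma adjusted p = 0.0129), a call that includes the pair of dim arrays at 0 h and is lost with that floor or without either 3 h array (adjusted p up to 0.0723). Mir99ahg fell by 1.48 at 3 h and by 1.59 at 5 h (limma adjusted p = 0.00541 and 0.00294), and Mir142hg, a host transcript of blood cells, fell by 0.94 and by 0.87 (adjusted p = 0.00556 and 0.00488). The 3 h call of Mir142hg is lost without the 3 h array lacking melatonin (adjusted p = 0.0522). At 5 h A330023F24Rik also rose (0.75, limma adjusted p = 0.0122), a call lost without the array lacking both agents. F630028O10Rik was above background on 3 arrays, all without melatonin, and on neither 5 h array. It was at least 1.15-fold lower at 5 h and 1.06-fold lower with melatonin (limma adjusted p = 0.0169 and 0.0328). Its measured means were -5.95 beside -3.96 and -5.39 beside -4.20, and both calls are lost with the common floor or without the array lacking both agents.

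Of 25 long noncoding RNAs known from macrophages or Toll-like receptor signalling 14 were tested, 10 of them outside the 85. At 3 h and again at 5 h 3 of the 10 rose and 0 fell by limma. The shares of all genes were 18.6% and 15.0% at 3 h and 24.9% and 19.3% at 5 h. At an unadjusted p under 0.05, 4 of the 10 were above and 1 below at each of these times. With melatonin 2 were higher and 2 lower, beside 15.3% and 25.3% of all genes. Beside Mir155hg and Ptgs2os2, Gas5 was called at 3 h (0.34, limma adjusted p = 0.0332) and U90926 at 5 h (adjusted p = 0.0209). Only the 3 h and 5 h melatonin arrays read U90926 above background, and it was at least 1.64-fold higher at 5 h, with measured means of -3.82 beside -6.58. Meg3 and Firre were the pair called higher with melatonin (limma adjusted p = 0.0351 and 0.0423). Firre differed by 0.25. Meg3 was above background only on the 3 h and 5 h melatonin arrays and was at least 1.44-fold higher with melatonin, with measured means of -4.04 beside -6.49. Each of these 4 calls is lost without a single array (adjusted p up to 0.162 for Gas5, 0.134 for U90926, 0.123 for Meg3 and 0.118 for Firre), and with the common floor. Ptgs2os2, the RNA known as lincRNA-Cox2, which lies beside the cyclooxygenase gene Ptgs2, was above background on 7 arrays. It read -2.70, -2.16, 0.96 and 1.20 without melatonin and -4.44, -3.43, -0.93 and -0.32 with it. The melatonin array without LPS was the one not above background, so its -4.44 is not a measured level, and the differences that use it rest on that reading. It rose by 3.59 at 3 h and 4.01 at 5 h and was lower with melatonin by a mean of -1.60 (limma adjusted p = 0.000271, 0.000155 and 0.00228), at all 4 times and in every alternative that included it.

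Promoter windows of 300 bases, 250 before to 50 after the start, were matched in RefSeq (GRCm38.p6) for 56 of the 85 transcripts (59 windows) and searched on both strands. AP-1 (TGANTCA) was found in 8.47% of these windows, beside 7.81% of 32851 windows of all genes. CRE (TGACGTCA) was found in 3.39% beside 1.79%, the interferon-stimulated response element (ISRE) core in 5.08% beside 3.44%, E-box (CACGTG) in 6.78% beside 7.15% and the kB consensus in 5.08% beside 4.51%. These shares rest on 2 to 5 windows each. The windows of 6530402F18Rik (chr2:29252944-29253243, minus strand) and Lncpint (chr6:31218425-31218724, minus strand) are shown because these RNAs had the largest change at 5 h and the largest decrease at 1 h. Capitals mark the kB match in 6530402F18Rik and the E-box in Lncpint. The starts of Lncpint and 2210408F21Rik lie 1875 bases apart on opposite strands.
6530402F18Rik: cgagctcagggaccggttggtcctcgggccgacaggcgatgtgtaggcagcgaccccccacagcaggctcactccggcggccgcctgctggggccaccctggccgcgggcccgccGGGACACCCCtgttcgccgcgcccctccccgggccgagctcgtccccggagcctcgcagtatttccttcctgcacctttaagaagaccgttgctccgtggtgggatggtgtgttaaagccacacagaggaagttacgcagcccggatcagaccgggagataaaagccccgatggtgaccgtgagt
Lncpint: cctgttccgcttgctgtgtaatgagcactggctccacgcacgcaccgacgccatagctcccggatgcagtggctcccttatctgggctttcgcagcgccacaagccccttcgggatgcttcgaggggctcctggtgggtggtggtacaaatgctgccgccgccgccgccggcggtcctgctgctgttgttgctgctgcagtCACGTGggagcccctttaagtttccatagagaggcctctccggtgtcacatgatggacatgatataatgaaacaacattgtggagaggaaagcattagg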

How the data were processed

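Total RNA of RAW264.7 cells was labelled with Cy3 and hybridised to 1-colour Agilent arrays, 1 per condition. Per the submitters' processing notes, Agilent Feature Extraction 12.0.3.1 read the scans. Per the file headers, the deposited intensity values are background-subtracted, detrended processed signals, with raw mean and background intensity columns beside them, and other columns hold 0 or 1 flags for saturation, for outliers and for signal well above background. A log2 table deposited for the whole series holds the same sorted values on all 8 arrays and correlated with the log2 processed signals at 0.9993 to 0.9998. The tool behind that table was not given in the sources used here.

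Processed signals were put on the log2 scale and centred on each array's 75th percentile (659.1 to 846.1), after removal of 3671 control spots among 62976. Spots flagged as outliers were left out when the spots of a probe were averaged. Where every spot of a probe was flagged on an array, the flagged value was kept. Genes well above background on at least 2 arrays were fitted, 1 probe a gene (highest mean), which gave 20236. Of 56605 probes, 32994 matched a RefSeq accession and 10314 had no symbol, and these stood for themselves. An additive limma model (limma 3.58.1, R 4.3.3) with LPS time and melatonin gave 2-sided moderated tests, with a call where the Benjamini-Hochberg adjusted p was under 0.05, and a further term gave melatonin by LPS. The fit was also run on simulated data with independent noise, which does not check the p-values given here. Python 3.11.15, pandas 2.3.3 and numpy 2.4.6 made the other summaries. With 1 array a condition, the error of the additive fit is how far the arrays depart from additive LPS and melatonin effects. Any difference in LPS change between the arms enters that error, and the p-values do not measure a spread between replicates. The number of arrays limits the precision.

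The transcripts and lists were chosen with earlier results of these data known. Named were the 12 widest ranges, the 6 largest rises and 6 largest falls at 1 h and at 5 h, the 8 largest melatonin differences, transcripts on the 3 lists (snoRNA hosts, microRNA hosts, macrophage long noncoding RNAs), and their neighbours. Other genes named with values were chosen after their values were seen. The nearest protein-coding gene came from the RefSeq gene table (GRCm38.p6). Alternatives were quantile normalization, normexp background correction with an offset of 50, the deposited table, other filters, a common floor, no intensity trend, averaged probes, and each array left out. No sample was left out of the reported values.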

Additional observations from a re-analysis of the deposited data

Results flagged for a closer look

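At 1 h of LPS, 7 of the 31 named transcripts had changes of opposite sign in the arms. None of these differences was tested, since each rests on 4 single arrays. How often all genes had opposite signs was not counted. The change with melatonin minus the change without it was -1.43 for Gm6654, -1.06 for 6530402F18Rik, -1.05 for A430093F15Rik, -0.72 for 2310020H05Rik and -0.13 for Morrbid. It was 0.43 for E130112N10Rik and 0.24 for Peg13. The 1 h changes of Gm6654, 6530402F18Rik and A430093F15Rik were 0.99, 0.85 and 1.01 without melatonin and -0.44, -0.21 and -0.04 with it. The last of these is hardly a change. E130112N10Rik changed by -0.38 without melatonin and 0.05 with it, and Morrbid and Peg13 hardly changed in the melatonin arm. By 3 h Gm6654, 6530402F18Rik and A430093F15Rik were above their arrays without LPS in both arms.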

How the results depend on the processing

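The rule found 85 transcripts, and 44 with normexp background correction, 192 with a range of at least 1 and 42 with a range of at least 2. An alternative added after seeing the data, which drops for each transcript the array that widens its range most, left 48. Leaving out each array in turn gave 73 to 84. The 10 transcripts called at 1 h became 3 with no filter on dim probes, 2 with a common floor, 2 with no intensity trend and 1 to 7 with an array left out. With an array left out, the transcripts called were 31 to 59 at 3 h, 48 to 64 at 5 h, 32 to 48 for melatonin and 0 to 1 for melatonin by LPS. Neighbours called were then 0 to 1 at 1 h, 11 to 29 at 3 h, 20 to 36 at 5 h and 15 to 23 for melatonin. Of 1984 values of the 31 named transcripts recomputed under the alternatives, 1697 moved by less than 1 SE, 287 moved by more and 0 called values changed sign. Of 142 calls of neighbours, parents, hosts and listed genes, 50 held under every alternative, 85 were lost without at least 1 array, and 3 changed sign. The melatonin differences of Gsk3a and Psmg1 became 0.01 and 0.03 with quantile normalization or the deposited table, and the 3 h change of Sec14l1 became -0.30 with averaged probes. The cause was not tested. No paired analysis was possible because each condition has 1 array, so no replicate numbers pair arrays; the additive model itself compares the arms within each LPS time.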
